A study of Mus musculus with 12 samples.

Results

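The genes of cholesterol synthesis, uptake and transport are 30 genes taken by name from the deposited expression table: 18 enzymes that build cholesterol, 5 genes of the sterol-sensing machinery, and 7 genes that take up, move, store or export it. All 30 were found among the 20788 genes of the table, and all 30 were among the 16395 genes with enough counts to be tested. RNA from testes of F1 mice, labelled strain IRC mouse, was sequenced in 12 libraries, in 4 groups of 3. In the overexpression group the testes had received a virus to raise lncRNA8276, a non-coding transcript for which the labels give no other name, and in the knockdown group a virus to inhibit it. The groups labelled 5NC and 3NC, called control_5NC and control_3NC here, are taken as the controls of overexpression and of knockdown because the design text lists the groups in that order; what NC stands for, whether those testes also received a virus, the kind of virus, its promoter, the cells it reached and the age of the mice are not stated. Starting material was total RNA of testis in every group. Separate mice for the 3 libraries of a group are not stated. A p-value here therefore reflects library-to-library spread that may be technical. A library is named by its group and replicate number, so that control_3NC 2 is replicate 2 of control_3NC.

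Animal cells make cholesterol from acetyl-CoA. The mevalonate arm leads through isoprenoid units to squalene, and the sterol arm closes squalene into lanosterol and trims it to cholesterol. When membrane sterol is low, Scap escorts the SREBP transcription factors, encoded by Srebf1 and Srebf2, out of the endoplasmic reticulum to be cleaved, and they switch on the synthesis genes; when sterol is plentiful, Insig proteins hold Scap back. In the testis, Leydig cells turn cholesterol into testosterone, and germ cells make lanosterol derivatives known as meiosis-activating sterols.

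Sequences upstream of the genes that the results turn on come from a RefSeq promoter table on GRCm38.p6, the assembly behind the mm10 build of the deposited data. Of the 30 genes, 23 had an entry; Fdps, Fdft1, Sqle, Scarb1, Tspo, Stard4 and Npc1 did not. The 250 bases before each start site were searched on both strands for 4 strings of letters: TCACNCCAC, a form of the sterol regulatory element that SREBP binds; CCAAT, bound by the factor NF-Y; GGGCGG, a GC box bound by Sp1; and TGACG, part of the cAMP response element. None of these strings contains another. A gene counts as holding a string when any of its windows does, and shares are given over the 27025 genes of the table. TCACNCCAC was upstream of 1.22% of all genes and of 1 of the 23, Hmgcs1. Other forms of the sterol regulatory element were not searched for, so a gene without this string may still hold one. CCAAT was upstream of 37.5% of all genes and of 20 of the 23, among them all 9 matched genes of the sterol arm. GGGCGG was upstream of 35.4% of all genes and of 21 of the 23, and TGACG of 19.8% of all genes and of 8 of the 23. By window, CCAAT was in 33.8% of all 32851 windows and in 67.7% of the 31 windows of these genes, GGGCGG in 32.7% and 77.4%, and TGACG in 17.8% and 25.8%. These matches describe the letters only; whether a factor binds there was not measured. Capitals mark the 4 strings or their reverse complements, and each sequence reads 5′ to 3′ on the strand of its gene. Hmgcs1 is shown because it alone held the sterol regulatory element form (chr13:119690101-119690350, plus strand), Cyp51 (chr5:4104747-4104947, minus strand, bases 250 to 50 before the start) and Ebp (chrX:8193513-8193762, minus strand) because of their values in the overexpression group, and Sc5d (chr9:42264301-42264550, minus strand) because it was among the genes lowest in a pair of libraries described further on. For Idi1, which had the largest log2 difference of the 30 with overexpression, 30 bases are shown (chr13:8885536-8885565, plus strand), which lie in exons of 2 GENCODE genes on opposite strands, Idi1 itself and Gm48574.
Hmgcs1: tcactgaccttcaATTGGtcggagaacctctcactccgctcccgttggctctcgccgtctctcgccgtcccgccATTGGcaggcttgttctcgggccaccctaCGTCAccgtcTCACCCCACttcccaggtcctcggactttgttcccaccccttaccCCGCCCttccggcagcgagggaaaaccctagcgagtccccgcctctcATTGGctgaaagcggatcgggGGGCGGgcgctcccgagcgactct
Cyp51: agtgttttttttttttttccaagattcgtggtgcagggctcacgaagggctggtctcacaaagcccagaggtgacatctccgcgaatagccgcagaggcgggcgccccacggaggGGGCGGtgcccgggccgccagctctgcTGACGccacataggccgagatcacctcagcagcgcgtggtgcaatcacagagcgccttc
Ebp: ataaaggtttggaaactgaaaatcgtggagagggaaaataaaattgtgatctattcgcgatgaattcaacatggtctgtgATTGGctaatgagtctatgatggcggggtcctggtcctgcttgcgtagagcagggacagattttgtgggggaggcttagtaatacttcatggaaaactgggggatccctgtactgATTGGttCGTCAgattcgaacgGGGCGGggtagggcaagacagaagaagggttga
Sc5d: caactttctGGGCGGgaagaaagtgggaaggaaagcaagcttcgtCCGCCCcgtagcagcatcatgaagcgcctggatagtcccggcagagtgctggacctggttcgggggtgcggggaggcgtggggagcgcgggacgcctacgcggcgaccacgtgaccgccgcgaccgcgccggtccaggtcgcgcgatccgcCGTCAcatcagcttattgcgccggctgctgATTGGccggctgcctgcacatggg
Idi1: cCCGCCCtagccttgcctccagctgATTGG
The CCAAT of Cyp51 began 29 bases before the start, outside the stretch shown. Ebp had its reverse complement at 170 and 55 bases, Sc5d at 24 bases and Idi1 at 45 and 14 bases before the start, the last of these outside the stretch shown.

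The libraries held 13485479 to 15771655 estimated counts each. Overexpression 2, control_5NC 3 and control_5NC 2 held the fewest, at 13485479, 13699547 and 13847277, and every other library held at least 15252025. These libraries were also alike in expression. By chi-square per degree of freedom between counts, overexpression 2 was at 7.57 and 9.06 from control_5NC 3 and 2. It was at 16.2 and 17.9 from overexpression 1 and 3. Testis markers were all detected, including 6 of 6 Leydig, 7 of 7 Sertoli, 6 of 6 spermatogonial, 6 of 6 pachytene and 8 of 8 spermatid genes. Some libraries stood apart, and the groups are small enough for each of them to matter. In control_3NC 2 the summed level of 8 macrophage and leukocyte markers was 413 CPM (counts scaled to a common library total), against 69.9 to 107 in the other 11 libraries, and that of 8 interferon-response genes was 306 CPM, against 5.49 to 20.8; every gene of both lists was highest there. In control_3NC 3 and knockdown 1 the sum of 6 Leydig cell markers was 933 and 900 CPM, against 1340 to 2010 CPM in the other 10. Transcripts on lists for other organs were found too. The liver list summed to 3.11 to 5.97 CPM in the 6 control libraries. It summed to 7.49 to 12.7 CPM in the 6 overexpression and knockdown libraries. For the adrenal list the sums were 5.78 to 6.9 CPM and 11.7 to 107 CPM. The 107 CPM was knockdown 1, with Akr1b7 alone at 93.2 CPM there. Cyp21a1 was at 4.6 to 5.84 CPM in the controls and 8.69 to 16.3 CPM in the others. Cyp11b1, Cyp11b2 and Mc2r were at most at 0.324 CPM in any library. The epididymis list summed to 375 CPM in knockdown 1, 266 CPM in control_5NC 2 and 114 CPM in control_5NC 3. Elsewhere it summed to 2.53 to 71.8 CPM. The part of these other cells in the results below was not tested. A value given without a library shows only what that library as a whole contributes. In whole tissue, fewer cells of a type and less RNA per cell cannot be told apart.

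Between genes, levels were compared per kilobase, in the deposited normalised unit, which behaves as FPKM (fragments scaled to gene length and library total). The most abundant was Fdft1, squalene synthase, at 123 ± 3.59 FPKM (SD, n = 12), followed by Fdps, farnesyl diphosphate synthase, at 69.7 ± 9.4 FPKM. Their ranges, 116 to 127 and 57.7 to 88.4, did not overlap. Scarb1, the receptor for selective uptake from high-density lipoprotein, at 51.3 ± 10.1 FPKM, and Sqle, squalene epoxidase, at 50.4 ± 3.29 FPKM, could not be ordered beyond their spread, and led the transport genes and the sterol arm. Insig2 led the sensing genes at 25.3 ± 3.75 FPKM, above Insig1 at 9.14 ± 1.39 FPKM, and their ranges of 20.4 to 31.3 and 7.67 to 11.7 did not overlap. At the low end were Npc1, a lysosomal cholesterol exporter, at 1.83 ± 0.846 FPKM and Hsd17b7, a keto-sterol reductase, at 1.92 ± 0.526 FPKM. Fdft1 and Sqle, which make and use squalene, stood above most of the genes that act later in the sterol arm, where Cyp51 at 30.9 ± 5.5 FPKM came next and the other 8 genes had means from 1.92 to 24.7 FPKM.

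**Figure D1:**
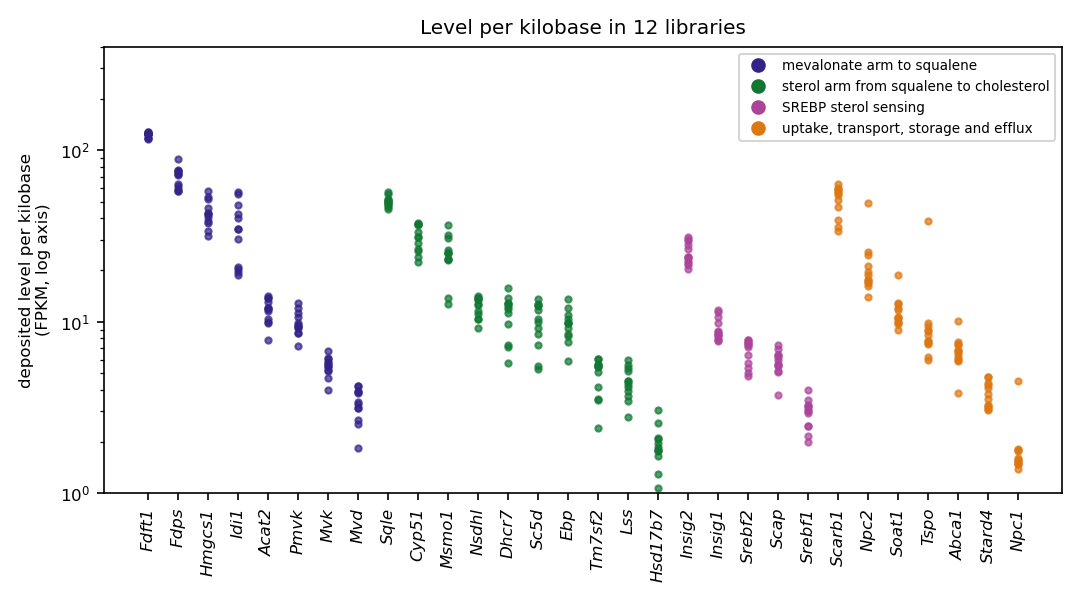
Deposited level per kilobase (FPKM-like unit, log axis) of each of the 30 genes, coloured by role and ordered by mean within a role; each point is 1 of 12 libraries. Fdft1 lies at 116 to 127 in all libraries, and the single high point of Tspo, 38.5, is control_3NC 2.

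Genes also differed in how far their level moved from library to library, here as CPM scaled by TMM, a normalisation across libraries. The highest library was 1.18 times the lowest for Fdft1 and 1.29 times for Sqle, but 2.96 times for Idi1 and 5.73 times for Tspo, an outer mitochondrial membrane protein of steroid-making cells. The plot of all genes by library shows that much of this followed single libraries and not groups. Control_3NC 3 was the lowest of the 12 libraries for 17 of the 30 genes and control_3NC 2 the highest for 10, against 13.5% and 21.8% of all genes tested.

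**Figure D2:**
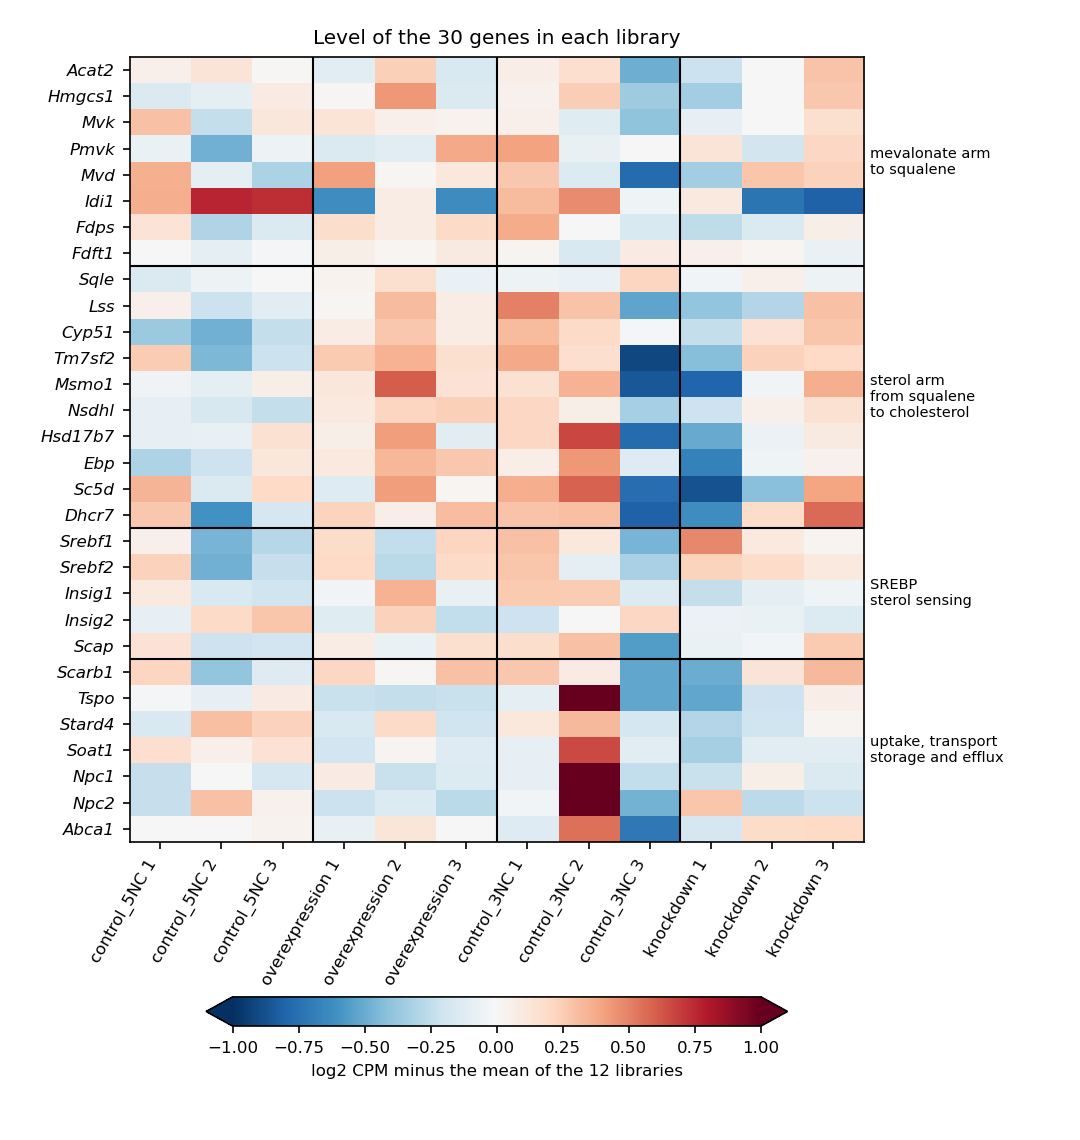
Level of the 30 genes (rows, grouped by role) in 12 libraries (columns), as log2 CPM minus the mean of the gene over the 12 libraries; the colour scale ends at -1 and 1. Idi1 is high in control_5NC 2 and 3, Tspo, Npc1 and Npc2 in control_3NC 2, and several sterol-arm genes are low in control_3NC 3 and knockdown 1.

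The first comparison set the overexpression libraries against control_5NC. No level of lncRNA8276 is given here, so whether it was higher in these libraries, or lower in the knockdown libraries, is known from the labels only. None of the 30 passed edgeR's quasi-likelihood test at a Benjamini-Hochberg adjusted p of 0.05, where 0.476% of all genes tested did. By value, Idi1 in the mevalonate arm was lower in the overexpression group, and the sterol arm leaned higher. At an unadjusted p below 0.05 there were 2 genes higher, Cyp51 and Nsdhl, and 1 lower, Idi1; of all genes 8.9% were higher and 6.39% lower at that level, 15.3% together. Fold changes above 0 were found for 22 of the 30 (73.3%; 48% of all genes), with a median log2 fold change of 0.15 against -0.01 over all genes.

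In the mevalonate arm, 6 of 8 genes had a fold change above 0, and the median was 0.13 on the log2 scale. Idi1, isopentenyl diphosphate isomerase (Entrez 319554, chromosome 13), was at 115, 151 and 149 CPM in the control_5NC libraries and at 58, 94.1 and 57.8 CPM in the overexpression libraries. The 3 overexpression libraries were all below the 3 controls. The fold change was 0.505, or -0.99 ± 0.27 (SE) on the log2 scale, with an adjusted p of 0.13. With a term for the 3 least deep libraries the log2 difference was -0.83 (edgeR adjusted p = 0.17). Fractional counts, as arise when reads are shared between similar genes, were recorded for Idi1 in all 12 libraries, and since the strand setting of the counting is not known, reads of the antisense gene Gm48574 over its first exon cannot be told apart; its level is uncertain for both reasons. Fdps was at 85, 62.8 and 70 CPM in control_5NC and at 87.5, 81.7 and 88.4 CPM with overexpression, so that the groups overlapped. Its log2 difference was 0.24 ± 0.14 (adjusted p = 0.48), and 0.37 without control_5NC 1 or 0.15 without control_5NC 2. Fdft1, which also has fractional counts, was at 439, 411 and 433 CPM in control_5NC and at 457, 444 and 467 CPM with overexpression. The groups did not overlap, but the log2 difference was only 0.09 ± 0.078 (adjusted p = 0.66). Differences for the first enzymes lay close to 0 beside their errors: Acat2, the thiolase that opens the route, at -0.06 ± 0.18, Hmgcs1, which makes HMG-CoA, at 0.17 ± 0.19, and mevalonate kinase, Mvk, at 0.00 ± 0.16. Pmvk, phosphomevalonate kinase, was at 0.25 ± 0.19 and Mvd, the decarboxylase that follows it, at 0.18 ± 0.27.

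In the sterol arm, 9 of 10 genes had a fold change above 0, and the median log2 fold change was 0.32. Cyp51, the lanosterol demethylase (Entrez 13121, chromosome 5), was at 99.4, 92.3 and 109 CPM in control_5NC and at 135, 155 and 135 CPM with overexpression. All 3 overexpression libraries were above the 3 controls. The fold change was 1.41, or 0.50 ± 0.13 on the log2 scale, with an adjusted p of 0.11. With a term for the 3 least deep libraries the log2 difference was 0.53 (edgeR adjusted p = 0.12). Nsdhl, a dehydrogenase that helps strip methyl groups from the sterol (Entrez 18194, chromosome X), was at 23.8, 22.6 and 21.4 CPM in control_5NC and at 27, 29.3 and 29.8 CPM with overexpression. Here too the groups did not overlap, and the log2 difference was 0.35 ± 0.14 (adjusted p = 0.26). Ebp, a sterol isomerase (Entrez 13595, chromosome X), was at 12.3, 13.2 and 16.5 CPM in control_5NC and at 16.3, 19.2 and 18.4 CPM with overexpression. Its lowest overexpression library lay just under the highest control, and the log2 difference was 0.36 ± 0.20 (adjusted p = 0.43). Msmo1, the methylsterol monooxygenase, also had groups that did not overlap, with 39.2, 37.6 and 41.9 CPM in control_5NC and 43.5, 61 and 44.4 CPM with overexpression, at 0.33 ± 0.32 on the log2 scale. Sqle, at 119, 127 and 131 CPM in control_5NC and 135, 147 and 126 CPM with overexpression, overlapped, with a log2 difference of 0.11 ± 0.093. The other 5 ran from -0.03 ± 0.37 for Sc5d, a sterol desaturase, over 0.14 ± 0.29 for Hsd17b7, 0.23 ± 0.24 for lanosterol synthase, Lss, and 0.32 ± 0.35 for Dhcr7, the reductase of the last step of one route, to 0.36 ± 0.30 for Tm7sf2, the sterol reductase that acts after Cyp51. The median of the sterol arm stayed between 0.19 and 0.33 when each library of the 2 groups was left out in turn, with 8 to 10 of the 10 genes above 0.

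**Figure D3:**
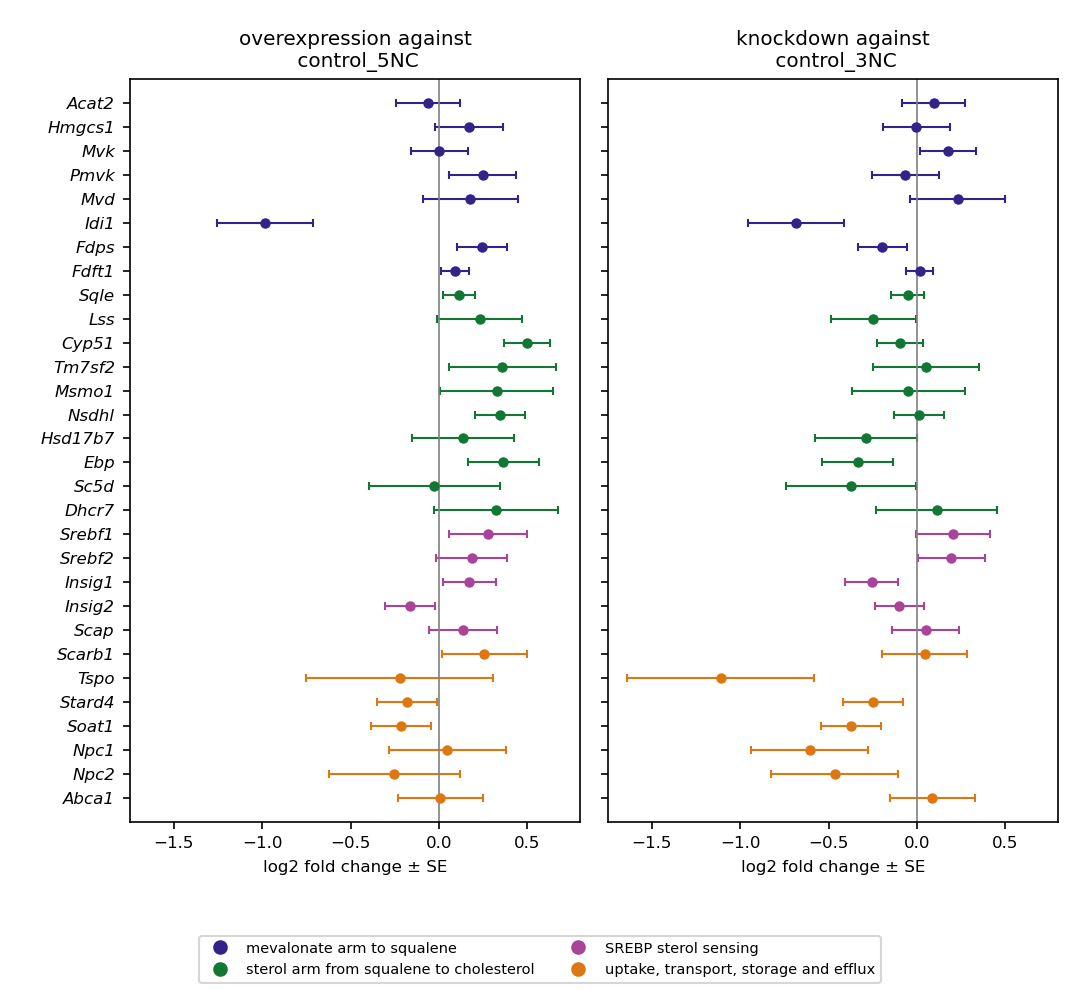
Log2 fold change ± SE of each of the 30 genes from edgeR, in overexpression against control_5NC (left) and knockdown against control_3NC (right), coloured by role on the same horizontal scale. Idi1 lies to the left in both panels, at -0.99 and -0.68, and 9 of 10 sterol-arm genes lie to the right of 0 in the left panel; none of the 30 passed the adjusted threshold in either.

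Among the sensing genes, 4 of 5 had a fold change above 0 with overexpression. Srebf1 and Srebf2 were at 0.28 ± 0.22 and 0.18 ± 0.20 on the log2 scale, Scap at 0.14 ± 0.19 and Insig1 at 0.17 ± 0.15. Insig2 was at 57.9, 70.1 and 74.4 CPM in control_5NC and at 56.5, 72.2 and 51.9 CPM with overexpression, a log2 difference of -0.17 ± 0.14 (adjusted p = 0.66). Every sensing gene had overlapping groups, and the largest difference was little more than its error. Of the 7 uptake, transport, storage and efflux genes, 3 had a fold change above 0, and the median log2 fold change was -0.18. Soat1, which esterifies cholesterol for storage, was at 59.1, 54.3 and 58.1 CPM in control_5NC and at 46, 53.6 and 48 CPM with overexpression. The groups did not overlap, with a log2 difference of -0.22 ± 0.17 (adjusted p = 0.63). Tspo was at 6.41, 6.14 and 6.9 CPM and at 5.58, 5.51 and 5.57 CPM, again without overlap, with a log2 difference of -0.22 ± 0.53; the spread behind that error is estimated over all 12 libraries, control_3NC 2 included. Over all 30 genes, groups that did not overlap were found for 4 genes higher and 3 lower with overexpression, against 11.7% and 10.3% of all genes, 22% together. Scarb1, at 136, 89.1 and 107 CPM in control_5NC and 135, 118 and 143 CPM with overexpression, was at 0.26 ± 0.24, with groups that overlapped. Npc1 was at 0.05 ± 0.33, its soluble partner Npc2 at -0.25 ± 0.37, the sterol carrier Stard4 at -0.18 ± 0.17, and Abca1, which exports cholesterol to apolipoproteins, at 0.01 ± 0.24.

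With DESeq2 in place of edgeR, Idi1 (adjusted p = 0.0072) and Cyp51 (adjusted p = 0.015) passed in this comparison. So did 5.91% of the genes to which DESeq2 gave an adjusted p. Markers of other cells are given beside these values. The Leydig sum was 1340 to 1790 CPM in control_5NC and 1800 to 1980 CPM with overexpression, with 5 of 6 markers above 0 and none past the test, and the summed level of the 8 spermatid markers was 12400 to 15600 and 12500 to 17400 CPM, with 6 of 8 above 0, 4 of them at an unadjusted p below 0.05, and none past the test. Of Sertoli markers 3 of 7 were above 0, of pachytene markers 3 of 6, of spermatogonial markers 4 of 6, of macrophage markers 6 of 8 and of interferon genes 1 of 8. Their part in the result was not tested.

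**Figure D4:**
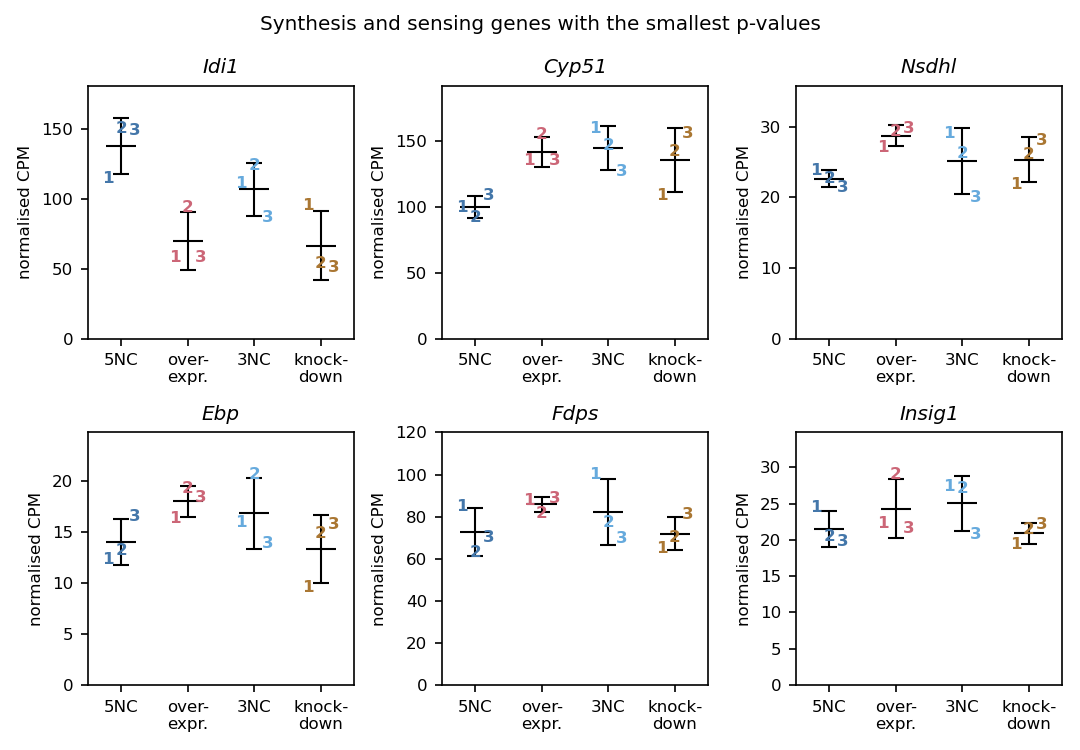
Normalised CPM in each library (digits are replicate numbers) with the group mean and SD (bars) for 6 synthesis and sensing genes; the vertical axes start at 0 and differ between panels. Idi1 is at 57.8 to 94.1 with overexpression against 115 to 151 in control_5NC, and Cyp51 at 135 to 155 against 92.3 to 109, while control_3NC holds Cyp51 at 127 to 160.

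The second comparison set the knockdown libraries against control_3NC. None of the 30 genes passed the adjusted threshold in edgeR, where 0.0183% of all genes did, and 1, Idi1, was lower at an unadjusted p below 0.05, while of all genes 3.25% were higher and 5.43% lower, 8.69% together. The sterol arm, which leaned higher with overexpression, showed no common direction here. Fold changes were above 0 for 12 (40%, against 45.3% of all genes) and below 0 for 18 of the 30 genes, with a median of -0.06 against -0.03 over all genes. That split rested on single libraries: 17 were above 0 without control_3NC 2 (median 0.06), 7 without control_3NC 3 (median -0.18) and 6 without knockdown 3 (median -0.17). Groups did not overlap for 0 of the 30 genes, against 6.48% of all genes higher and 6.57% lower, 13% together. DESeq2 also called none of the 30 and 0.126% of the genes to which it gave an adjusted p.

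Idi1 was at 111, 124 and 86.6 CPM in control_3NC and at 95.5, 53.7 and 51 CPM with knockdown. Knockdown 1 lay above control_3NC 3, so the groups overlapped, while the other 2 knockdown libraries lay below every control. The log2 difference was -0.68 ± 0.27 (adjusted p = 0.56), in the same direction as with overexpression. It ranged from -1.04 without knockdown 1 to -0.52 without knockdown 3 and was -1.15 (adjusted p = 0.30) without control_3NC 3 and knockdown 1 together. Of the other mevalonate-arm genes, 4 had fold changes above 0 and 3 below. Fdft1 was at 447, 394 and 464 CPM in control_3NC and 455, 445 and 419 CPM with knockdown, a log2 difference of 0.01 ± 0.078.

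In the sterol arm, 3 of 10 genes had a fold change above 0, and the median log2 fold change was -0.07; without single libraries 0 to 5 of the 10 were above 0, with medians from -0.29 (without control_3NC 3) to 0.00 (without knockdown 1). Cyp51 was at 160, 147 and 127 CPM in control_3NC and at 109, 142 and 156 CPM with knockdown. The groups overlapped, with a log2 difference of -0.10 ± 0.13 (adjusted p = 0.79). Ebp was at 15.9, 20.6 and 13.9 CPM in control_3NC and at 9.51, 14.8 and 15.7 CPM with knockdown, a log2 difference of -0.34 ± 0.20 (adjusted p = 0.58). Of the 2 libraries with few Leydig transcripts, knockdown 1 was at 9.51 CPM and control_3NC 3 at 13.9 CPM. The part of Leydig transcripts in these values was not tested. Sqle, at 127, 126 and 153 CPM in control_3NC and 129, 136 and 127 CPM with knockdown, was at -0.05 ± 0.093. Nsdhl was at 29.1, 26.2 and 20 CPM in control_3NC and 21.8, 26.1 and 28.1 CPM with knockdown. Its log2 difference of 0.01 ± 0.14 compares with 0.35 with overexpression.

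Of the sensing genes, Insig1 was at 27.3, 27.1 and 20.7 CPM in control_3NC and at 19.3, 21.4 and 22.1 CPM with knockdown. Control_3NC 3 lay among the knockdown libraries, and the log2 difference was -0.26 ± 0.15 (adjusted p = 0.57). Insig2 was at 53.3, 61.7 and 71.1 CPM in control_3NC and at 58.9, 58.8 and 55.9 CPM with knockdown, so the knockdown values all fell inside the range of the controls. Srebf1 at 0.20 ± 0.21, Srebf2 at 0.20 ± 0.19 and Scap at 0.05 ± 0.19 had groups that overlapped too.

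The 7 uptake, transport, storage and efflux genes had a median log2 fold change of -0.38 with knockdown, and that value rested on control_3NC 2. Tspo was at 6.1, 26 and 4.53 CPM in control_3NC and at 4.53, 5.64 and 6.8 CPM with knockdown. Npc1 was at 8.23, 21.6 and 7.37 CPM in control_3NC and at 7.47, 9.08 and 7.9 CPM with knockdown. Soat1 was at 49.6, 82.7 and 48.4 CPM in control_3NC and at 41.6, 48.9 and 48.9 CPM with knockdown. In each of the 3 genes a single control library was high and the other 2 lay among or close to the knockdown libraries. With all libraries the log2 differences were -1.11 ± 0.53 for Tspo, -0.61 ± 0.33 for Npc1 and -0.38 ± 0.17 for Soat1, with an adjusted p of 0.56 each. Without control_3NC 2 they were 0.09 for Tspo, 0.06 for Npc1 and -0.08 for Soat1, and the median of the 7 genes was 0.09, with 5 of 7 above 0 in place of 2. Scarb1, which does not follow that library, was at 141, 124 and 81.4 CPM in control_3NC and 82.8, 128 and 146 CPM with knockdown, a log2 difference of 0.04 ± 0.24. Its low value in each group came from control_3NC 3 and knockdown 1.

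Control_3NC 2, control_3NC 3 and knockdown 1 stood apart for these genes. The patterns were picked out after the values were seen, so they are described without a test. Control_3NC 2 was the highest of the 12 libraries for 6 of the 7 transport genes, all but Scarb1, and for 21.8% of all genes. It was at least 1.5 times the next library for Tspo, Npc1 and Npc2, and for 7.08% of all genes. Npc2, the soluble lysosomal sterol carrier, was at 147 CPM there and at 45.7 to 77.5 CPM in the other 11 libraries, and Ptprc, the pan-leukocyte surface gene, was at 95.5 CPM against 1.98 to 3.89 CPM. Of the synthesis genes, none of the 8 of the mevalonate arm and 3 of 10 in the sterol arm were highest there. Of other sterol-handling genes, Abcg1 and Mylip, known targets of the sterol-sensing LXR receptors, and Lipa and Nceh1, which split cholesterol esters, were also at least 1.5 times the next library there, 4 of 33 tested. Macrophages are known to express many of these transport genes, and the part of the 8 macrophage markers in these values was not tested.

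Control_3NC 3 and knockdown 1 were the 2 lowest libraries for 11 of the 30 genes (36.7%), against 3.13% of all genes. The 11 were Acat2, Hmgcs1 and Mvd of the mevalonate arm, Lss, Msmo1, Hsd17b7, Sc5d and Dhcr7 of the sterol arm, and Scarb1, Tspo and Abca1. Sc5d was at 15.7 and 14.6 CPM in these 2 libraries and at 20 to 40.2 CPM in the other 10. Msmo1 was at 22.3 and 23.2 CPM against 37.6 to 61 CPM, and Dhcr7 at 14.2 and 16.2 CPM against 16.4 to 36.9 CPM. Of 10 steroid synthesis genes, 6 had the same order. Among them Cyp11a1, which cuts the cholesterol side chain, was at 81.5 and 80.1 CPM against 144 to 256 CPM. The Leydig markers share Cyp11a1, Cyp17a1, Hsd17b3 and Hsd3b1 with the steroid list. Of these 6 markers 5, all but Hsd3b1, were lowest in the same pair. Of 14 fatty acid genes that SREBP1 is known to drive, 5 did so too, namely Acly, Scd2, Elovl5, Fads1 and Fads2. No sensing gene, no Sertoli, spermatogonial, pachytene or spermatid marker had this order, while 3 of 8 macrophage and 2 of 8 interferon genes did. Fdft1, at 464 and 455 CPM in the pair, and Sqle, at 153 and 129 CPM, were not low there, so the synthesis genes did not move as 1 block. Each pair member belongs to a different group, so the comparison of knockdown with control_3NC carries 1 such library on each side, and the part of Leydig transcripts in these values was not tested.

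**Figure D5:**
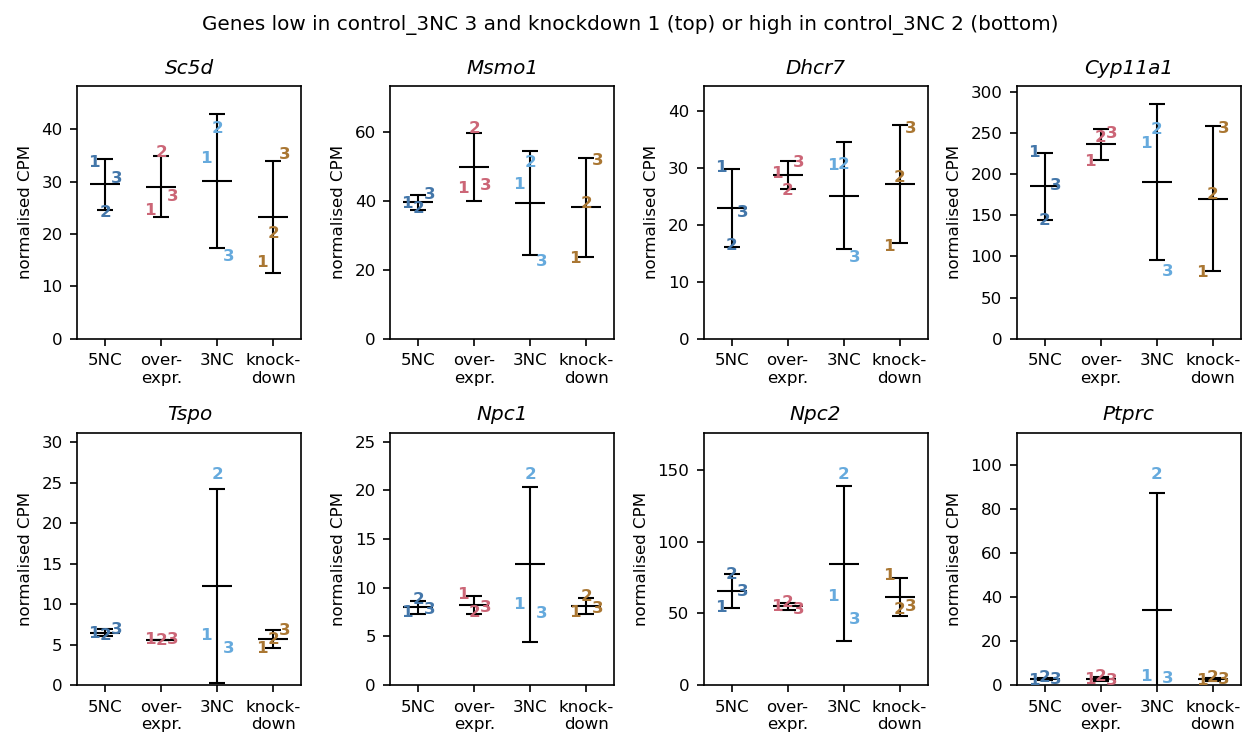
Normalised CPM in each library (digits are replicate numbers) with group mean and SD (bars), vertical axes starting at 0 and differing between panels. Top: Sc5d, Msmo1, Dhcr7 and the Leydig marker Cyp11a1, low in control_3NC 3 and knockdown 1. Bottom: Tspo, Npc1, Npc2 and the leukocyte marker Ptprc, high in control_3NC 2.

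The controls were compared with each other, since each construct group is given its own. None of the 30 genes passed in edgeR, where 0.244% of all genes did. At an unadjusted p below 0.05 there was 1, Cyp51, which was lower in control_5NC; of all genes 5.01% were higher and 7.87% lower, 12.9% together. Groups did not overlap for the same 1 gene, against 7.02% of all genes higher and 6.17% lower, 13.2% together. For Cyp51, the 3 control_5NC libraries, at 92.3 to 109 CPM, all lay below the 3 control_3NC libraries, at 127 to 160 CPM, with a log2 difference of -0.53 ± 0.13 (adjusted p = 0.16). That difference between the controls is as large as the one between overexpression and control_5NC, and the overexpression libraries, at 135 to 155 CPM, lay inside the range of control_3NC. The 2 comparisons share the control_5NC libraries. DESeq2 called Cyp51 here (adjusted p = 0.016), with 1.78% of the genes to which it gave an adjusted p. So did edgeR without control_3NC 3 and knockdown 1 (adjusted p = 0.044), with 0.309% of the genes tested. Pmvk was at 9.74, 7.34 and 9.85 CPM in control_5NC and at 13.5, 9.7 and 10.2 CPM in control_3NC, a log2 difference of -0.31 ± 0.19 (adjusted p = 0.53), and -0.15 without control_3NC 1 or -0.19 without control_5NC 2. Insig1 was at 24.4, 20.5 and 19.8 CPM in control_5NC and its log2 difference was -0.21 ± 0.15 (adjusted p = 0.57), and -0.33 without control_3NC 3. Tspo at -0.92 ± 0.52 and Npc1 at -0.64 ± 0.33 again rested on control_3NC 2; without it they were at 0.29 and 0.03. Of all genes 46.6% were higher in control_5NC, with a median of -0.02. Over the sterol arm, 9 of 10 genes were lower in control_5NC, with a median of -0.14. That count was 6 without control_3NC 1, 5 without control_3NC 2, 10 without control_3NC 3 and 6 without control_5NC 2.

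The effects of the 2 constructs were then set against each other, as the overexpression effect minus the knockdown effect. No gene of the 30 passed in edgeR, where 0.0183% of all genes did, nor in DESeq2, where 0.246% of those with an adjusted p did. At an unadjusted p below 0.05 there were 2 above 0, Cyp51 and Ebp, while of all genes 3.93% were above and 2.8% below 0, 6.73% together. Cyp51 stood at 0.59 ± 0.19 on the log2 scale (adjusted p = 0.62) and Ebp at 0.70 ± 0.28 (adjusted p = 0.71). All 10 genes of the sterol arm had a difference above 0, against 54.7% of all genes. Their median was 0.36 against 0.03 over all genes, and the 8 of the mevalonate arm divided into 4 and 4. The 2 effects use different controls, and 9 of the 10 sterol-arm genes were lower in control_5NC than in control_3NC. The part of that gap between the controls in the sterol-arm count was not tested. Leaving out each library in turn kept 9 or 10 of the 10 above 0, but the median ran from 0.19 without knockdown 1 to 0.65 without control_3NC 3. For Idi1 the difference of the effects was -0.30 ± 0.38 (adjusted p = 0.91), so its 2 effects could not be told apart.

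Both constructs together were compared with both controls, to ask what the 2 construct groups shared. None of the 30 genes passed in edgeR, where 0.262% of all genes did. At an unadjusted p below 0.05 there were 2, both lower, Idi1 and Soat1, while of all genes 9.07% were higher and 8.75% lower, 17.8% together. Idi1 was at 51 to 95.5 CPM in the 6 construct libraries and at 86.6 to 151 CPM in the 6 control libraries, with 1 control, control_3NC 3, inside their range. The log2 difference was -0.84 (adjusted p = 0.11). Idi1 passed with DESeq2 (adjusted p = 0.00084; 5.66% of genes passed), and in edgeR without knockdown 1 (adjusted p = 0.039; 0.169%), without overexpression 2 (adjusted p = 0.044; 1.81%) and without control_3NC 3 and knockdown 1 (adjusted p = 0.024; 0.461%). In each of these the log2 difference was between -1.07 and -0.83. Idi1 did not pass in the other 16 of 20 alternatives. Over all 20 the log2 difference ran from -1.07 to -0.76, with an adjusted p of up to 0.29. For Idi1, knockdown 1 (95.5 CPM) and overexpression 2 (94.1 CPM) were the highest construct libraries and control_3NC 3 (86.6 CPM) the lowest control. Leaving such libraries out widens the difference by construction, so those edgeR fits are not support. Soat1 was at 41.6 to 53.6 CPM in the construct libraries and at 48.4 to 82.7 CPM in the controls, a log2 difference of -0.30 (adjusted p = 0.24), and -0.15 without control_3NC 2. This comparison reuses the libraries of the first 2, so it is not separate evidence.

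The wider pathway was read from further lists. Of 14 tested genes of isoprenoid branches and further sterol synthesis, 15 of SREBP processing and turnover, 33 of sterol handling, 14 of SREBP1-driven fatty acid synthesis and 10 of steroid synthesis, none passed in edgeR in either main comparison, with 4, 5, 13, 10 and 6 genes above 0 with overexpression and 5, 6, 10, 5 and 7 above 0 with knockdown. Of all genes, 48% were above 0 with overexpression and 45.3% with knockdown. Among the isoprenoid genes, Dhdds, which makes dolichol precursors, was at 0.32 ± 0.13 with overexpression and 0.28 ± 0.13 with knockdown, and Fntb, the beta subunit of farnesyltransferase, at 0.43 ± 0.19 and 0.57 ± 0.19. Of the SREBP and Insig turnover genes, Ufd1, a partner of the Vcp segregase, was at 0.29 ± 0.073 with overexpression (adjusted p = 0.096), Erlin1, an endoplasmic reticulum membrane protein, at -0.34 ± 0.10 with overexpression and -0.16 ± 0.10 with knockdown, and Syvn1, a ubiquitin ligase, at 0.32 ± 0.13 with knockdown. In lipid synthesis, Lpin1, a phosphatidate phosphatase, was at 0.41 ± 0.11 (adjusted p = 0.11) and acetyl-CoA carboxylase, Acaca, at 0.19 ± 0.077 with overexpression; with knockdown Acss2, which makes acetyl-CoA from acetate, was at 0.18 ± 0.11 and Me1, malic enzyme, at -0.17 ± 0.12. Of the steroid genes, Srd5a1, a steroid reductase, was at -0.65 ± 0.21 with overexpression and 0.65 ± 0.21 with knockdown, and Hsd3b1, a steroid dehydrogenase, at 0.17 ± 0.083 and 0.46 ± 0.083 (adjusted p = 0.30 with knockdown).

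Cyp46a1, the cholesterol hydroxylase that turns cholesterol into an oxysterol, was the only gene of these 5 lists to pass in any of the 5 comparisons. It was at 6.41, 4.8 and 5.9 CPM in control_5NC, 10.6, 8.52 and 8.55 CPM with overexpression, 10.5, 9.96 and 10.8 CPM in control_3NC and 17.4, 15.2 and 14.6 CPM with knockdown. Each construct group lay wholly above its own control, and control_3NC lay above control_5NC and beside overexpression. The log2 difference was 0.69 ± 0.15 with overexpression (adjusted p = 0.068) and 0.59 ± 0.14 with knockdown (adjusted p = 0.56). It rose by 0.64 ± 0.10 in both constructs against both controls (adjusted p = 0.027) and was lower in control_5NC than in control_3NC, at -0.87 ± 0.15 (adjusted p = 0.04). Also at the smallest p in sterol handling were the sterol-binding protein gene Osbpl2, at -0.39 ± 0.092 with overexpression (adjusted p = 0.082), and the transporter gene Abcg4, at 1.17 ± 0.40 with knockdown.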

How the data were processed

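RNA of F1 mouse testes was measured in 12 libraries. For each gene the authors deposited an estimated count (88.2% of values were whole) and a normalised level in an FPKM-like unit. Its header says only that it is an expression value; it is read as FPKM because the gene length it implies varied little between libraries (median CV 0.665% over 7164 genes). Per the submitters' processing notes the genome build was mm10. The sources used here name no aligner, counting program, annotation or strand setting. A further 18 columns belong to 9 samples outside these groups and were left unused. Positions and promoter sequences come from RefSeq on GRCm38.p6, exons from GENCODE. No level is given for lncRNA8276, which was not analysed here.

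After rounding, the estimated counts went into edgeR 4.0.16 (R 4.3.3) with filterByExpr (minimum count 10; genes left out held 0.0707% of counts), TMM scaling and 1 robust quasi-likelihood model of group means over all 12 libraries, so that groups share 1 estimate of the spread (biological coefficient of variation 19.7%). P-values were adjusted by Benjamini-Hochberg over all 16395 genes within a comparison, with 0.05 as the threshold. The test was tested on simulated data. The 30 genes and all lists were chosen with earlier results of these data known. Values in every library are given for the 5 genes with the smallest p in each of the first 3 comparisons and for the gene with the highest level per kilobase in each role; of other lists, genes past the threshold and the 2 with the smallest p in each main comparison are named. Msmo1, Npc2, Sc5d and Dhcr7, and the marker genes Cyp11a1 and Ptprc, were added after their values were seen. Alternatives were other scaling, no filter, DESeq2 1.42.0, limma-voom (limma 3.58.1), a replicate block, a fit of only the groups compared and leaving out each library. Leaving out control_3NC 3 and knockdown 1 together, and a covariate marking the 3 least deep libraries, were added after seeing the data. DESeq2 gives some genes no adjusted p. Its shares are therefore over 12099 to 20294 genes, depending on the comparison, and do not have the same base as those of edgeR.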

Additional observations from a re-analysis of the deposited data

How the results depend on the processing

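The number of the 30 genes past the threshold stayed at 0 in knockdown against control_3NC and in the difference of the effects under every alternative run. It was 2 with DESeq2 in overexpression against control_5NC (Idi1 and Cyp51), and 1 with DESeq2 and 1 without control_3NC 3 and knockdown 1 together in control_5NC against control_3NC (Cyp51). In both constructs against both controls it was 1 with DESeq2 and 1 without that pair, and 0 to 1 when each library was left out in turn (Idi1). DESeq2 called 760 genes in overexpression against control_5NC where edgeR called 78, and 25, 311, 50 and 685 in the other comparisons where edgeR called 3, 40, 3 and 43; the cause was not tested. Without control_3NC 2 the direction reversed for Tspo (0.088) and Npc1 (0.063) in knockdown against control_3NC, and for Tspo (0.285) and Npc1 (0.032) in control_5NC against control_3NC; without control_3NC 3 the same 4 values were -1.503, -0.871, -1.307 and -0.903, the other end of their ranges. Replicate numbers were not taken to pair the libraries, since in each comparison of 2 groups at least 1 same-numbered pair fell to 0.1 or less: same-number correlations of deviations from the group means were 0.21, 0.313 and -0.125 for overexpression with control_5NC, where 3 of 6 libraries correlated best with their own number, 0.299, 0.181 and 0.003 for control_5NC with control_3NC, and 0.038, -0.039 and -0.093 for knockdown with control_3NC, where 1 of 6 did. With the replicate number as a block, 0 of the 30 genes passed in any of the 5 comparisons, and 269, 3, 54, 6 and 386 of all genes did, against 78, 3, 40, 3 and 43 without the block. The correlations do not exclude pairing, because deviations from a mean of 3 libraries depend on each other. Groups of 3 libraries limit what can be detected.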
